A study of Mus musculus with 12 samples.

Results

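Mouse erythroid progenitors of the G1E-ER4 line were compared in 4 groups by RNA sequencing, and 98 of the 17210 genes in the deposited count table (0.569%) stood more than 4-fold above the untreated cells in every one of the 3 treated groups. The 98 genes, called members here, were picked by their own values: in Vector+EST, SREBP2 and SREBP2+EST alike, the mean CPM (counts scaled to the library total, per 1000000) had to exceed 4 times the Vector mean and to be at least 5 CPM. Their distance from Vector is therefore a description of the choice and is given without a test. How the members differed among the 3 treated groups, on which the choice bore only through its limits, and where they lie and what sequence stands before them, which it did not use, are described after it.

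G1E-ER4 cells were derived from embryonic stem cells that lack GATA1, the zinc finger factor that drives red cell maturation, and they carry a GATA1 fused to the hormone-binding domain of the estrogen receptor. Adding β-estradiol (EST) lets the fusion act, so that GATA1 activity is switched on by the hormone. SREBP2 is a membrane-bound factor of the endoplasmic reticulum. When sterols run short it is cut, and its released amino-terminal part enters the nucleus and turns on cholesterol synthesis genes through sterol regulatory elements. The study asked how the GATA1 and SREBP2 programs act on each other in red cell progenitors.

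All 12 libraries came from this one line, labelled as strain C57BL/6J, and each cell had been transduced for 24 h with a retrovirus carrying either nothing (Vector) or the active SREBP2 fragment of residues 1-468, then given vehicle or EST for 6 h. Vector was empty virus with vehicle, Vector+EST was empty virus with EST, SREBP2 was the fragment with vehicle, and SREBP2+EST was the fragment with EST, with 3 libraries in each. The EST dose stands as 500 nM in one label and as 200 nM in another. Because nothing in the labels says that the 3 libraries of a group came from separate cultures, p-values measure the spread between these libraries, which may be technical. A library is named by its group and its column number in the deposited table (these numbers differ from those in the sample titles).

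Library totals lay between 18700959 and 19152281 counts, so that 3 counts were worth between 0.157 and 0.160 CPM. Mouse Srebf2 lay between 362 and 378 CPM in Vector, between 438 and 460 CPM in Vector+EST, and between 775 and 819 CPM in the 6 libraries with the fragment; how far reads of the fragment itself were counted in that row is not given in the sources used here. The labels call the cell type embryonic stem cells, yet all 7 pluripotency markers in the table were under 1 CPM in every library, whereas 10 erythroid markers summed to between 9702 and 10062 CPM in Vector and between 6002 and 7053 CPM in the treated libraries. Summed megakaryocyte markers, 9 in the table and 4 of them under 1 CPM in every library, lay between 76.8 and 89.6 CPM in Vector, between 51.3 and 58.9 CPM in Vector+EST and between 95.6 and 119 CPM with the fragment. The sum did not speak for the single markers. Of the 5 tested, 1, 2 and 2 were called higher than Vector and 4, 3 and 3 lower in Vector+EST, SREBP2 and SREBP2+EST (edgeR's quasi-likelihood test, adjusted p under 0.05). Over all genes tested, 35.2%, 37.7% and 38.6% were called higher and 35.5%, 33.8% and 34.2% lower. Summed markers of mast cells and basophils lay between 16.9 and 17.3 CPM in Vector and between 6.52 and 11.9 CPM in the treated libraries, and those of neurons between 13.2 and 14.9 CPM in Vector and between 3.33 and 8.04 CPM. Markers of fibroblasts and stroma summed to between 49.5 and 53.1 CPM in Vector and to 21.8, 22.5 and 53.9 CPM in Vector+EST, where library 5 alone was high, 22.8, 37.2 and 38.7 CPM in SREBP2 and 53.8, 56.5 and 38.9 CPM in SREBP2+EST. Here too the sum hid moves of single markers. Of the 8 tested, 4, 1 and 5 were called higher and 2, 2 and 2 lower than Vector in Vector+EST, SREBP2 and SREBP2+EST. Their median log2 differences from Vector were 1.75, 0.105 and 5.54. The part of these marker sets in the results was not tested. In bulk RNA, fewer cells of a type and less RNA per cell cannot be told apart.

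The pattern of 2 libraries went against their labels. Over the 98 members, the median log2 distance above the Vector mean was 2.79 in SREBP2 library 1, as in SREBP2+EST libraries 2 and 5 (2.79 and 2.75), while SREBP2+EST library 1 stood at 2.58, beside SREBP2 libraries 3 and 5 (both 2.60). SREBP2 library 1 lay nearer to SREBP2+EST libraries 2 and 5 than to its own group for 67 of 98 members, and SREBP2+EST library 1 lay nearer to SREBP2 libraries 3 and 5 for 80 of 98. The groups were kept as labelled, and the counts of members called, with the members that differed most, are also given without these 2 libraries. In addition, the first principal component of all genes, holding 65.3% of the variance, set the 3 Vector libraries apart from the other 9, so that anything else that differed between the Vector cultures and the rest cannot be told apart from the treatments.

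The members lay well apart from the spread of the Vector libraries. Summed over all 98, they made up between 0.183% and 0.190% of the counts in Vector, between 1.10% and 1.14% in Vector+EST, between 1.196% and 1.22% in SREBP2 and between 1.21% and 1.25% in SREBP2+EST. The lowest of the 9 treated libraries was above the highest Vector library for 98 of 98, by 3.01-fold at the least and 4.65-fold at the median; of all genes tested, 28.3% were placed so. Median folds over Vector were 6.04 in Vector+EST, 6.38 in SREBP2 and 6.53 in SREBP2+EST, and they ran from 4.0002 to 57.9, from 4.03 to 79.4 and from 4.11 to 78.2. The smallest of a member's 3 folds was between 4 and 5 for 35 members, between 5 and 10 for 52 and over 10 for 11. In the 3 treated groups the folds of one member were close: the largest was under 1.5 times the smallest for 91 members and at least 2 times the smallest for 4. The comparisons share the Vector libraries, and the rule itself asked for all of them to be high.

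**Figure D1:**
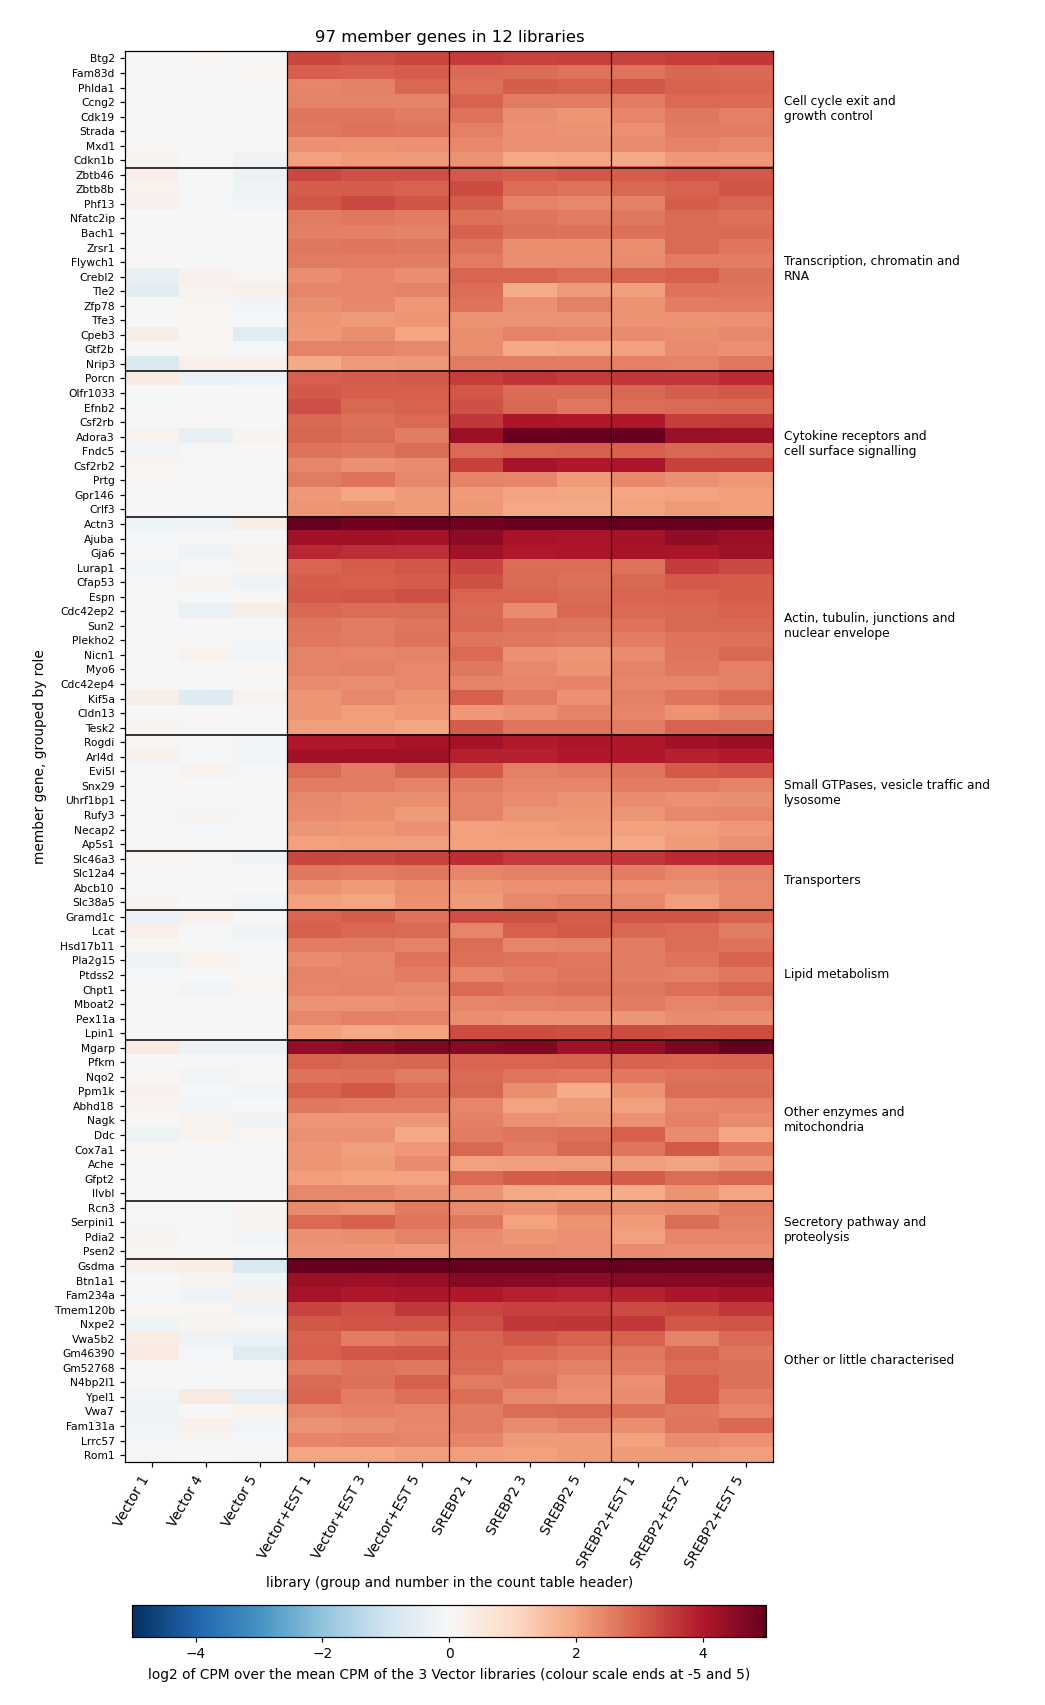
Each row is one of 97 members, grouped by role, and each column a library; colour gives the log2 of its CPM over the mean of the 3 Vector libraries, from -5 to 5. All 97 are darker in each of the 9 treated libraries than in any Vector library, and the rows of Csf2rb, Csf2rb2 and Adora3 are darkest in SREBP2 libraries 3 and 5 and SREBP2+EST library 1.

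The limits of the rule cut through a continuous range. Taken group by group, whether or not a gene passed in the others, 194 genes met the limits in SREBP2+EST, 182 in SREBP2 and 113 in Vector+EST, of which the members were 50.5%, 53.8% and 86.7%; these genes were 1.13%, 1.06% and 0.657% of the table. Just inside the fold limit lay Lpin1 with a smallest fold of 4.0002, Ilvbl with 4.03 and Rom1 with 4.06. Just outside lay Pdcd4 with 3.95, and Creb3 and Ypel3, whose smallest folds were 3.995 and 3.997. At the CPM limit, Adora3 with a smallest treated mean of 5.08 CPM, Vwa5b2 with 5.18 CPM and Gsdma with 5.19 CPM were in. Fn3k with 4.83 CPM, Usp18 with 4.55 CPM and Il4 with 4.34 CPM were out, although Fn3k and Usp18 had smallest folds of 34.6 and 21.7.

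Promoter sequences were examined because GATA factors bind the core letters GATA, most often with T or A before and A or G after them. That the members rose together in the 3 treated groups follows from the rule. RefSeq windows of 250 bases before and 50 bases after a start were found for 81 members, 106 windows in all (GRCm38.p6). Stretches before the starts of 7 members are shown, 6 with matches to these 4 hexamers on either strand, which are in capitals, and that of Arl4d, which has none. All are written 5′ to 3′ along the gene and end at the start or as near it as no annotated exon intervenes. The stretch of Gramd1c holds 4 matches and those of Pfkm, muscle-type phosphofructokinase, and Cox7a1 hold 3 each. For Pfkm the window printed is that of its most upstream start. Stretches before other starts are not printed: those of Gramd1c and Fam234a hold 0 matches and those of Pfkm 2, 1 and 0. Any match stood in 34.0% of the member windows, so the stretches printed are not typical of the members.
Pfkm, chr15:98092339-98092588, plus strand: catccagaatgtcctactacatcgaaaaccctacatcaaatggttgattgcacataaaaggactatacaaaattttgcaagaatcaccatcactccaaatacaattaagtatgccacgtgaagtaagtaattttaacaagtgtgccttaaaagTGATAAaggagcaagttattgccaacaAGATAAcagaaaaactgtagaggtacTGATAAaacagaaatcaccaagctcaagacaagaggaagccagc
Gramd1c, chr16:44042009-44042258, minus strand: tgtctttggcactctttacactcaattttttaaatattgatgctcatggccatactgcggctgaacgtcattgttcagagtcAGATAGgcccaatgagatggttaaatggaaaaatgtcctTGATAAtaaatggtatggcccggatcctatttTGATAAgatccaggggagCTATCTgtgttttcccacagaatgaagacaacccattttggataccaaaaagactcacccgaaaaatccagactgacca
Cox7a1, chr7:30183921-30184143, plus strand: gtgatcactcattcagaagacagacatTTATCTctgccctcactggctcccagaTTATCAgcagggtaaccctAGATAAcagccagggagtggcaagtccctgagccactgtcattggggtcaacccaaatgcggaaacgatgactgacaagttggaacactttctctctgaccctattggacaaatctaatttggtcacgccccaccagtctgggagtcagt
Pdia2, chr17:26199088-26199182, minus strand: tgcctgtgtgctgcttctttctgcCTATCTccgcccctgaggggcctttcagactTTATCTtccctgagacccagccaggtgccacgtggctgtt
Lcat, chr8:105943403-105943589, minus strand: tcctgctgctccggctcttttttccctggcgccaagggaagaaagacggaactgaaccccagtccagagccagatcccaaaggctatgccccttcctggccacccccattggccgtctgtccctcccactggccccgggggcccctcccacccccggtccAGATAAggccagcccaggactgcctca
Fam234a, chr17:26244243-26244492, minus strand: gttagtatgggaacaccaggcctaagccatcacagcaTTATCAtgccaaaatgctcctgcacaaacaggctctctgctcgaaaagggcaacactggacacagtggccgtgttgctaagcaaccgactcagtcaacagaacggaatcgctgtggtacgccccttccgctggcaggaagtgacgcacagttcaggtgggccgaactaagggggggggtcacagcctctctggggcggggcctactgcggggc
Arl4d, chr11:101665291-101665540, plus strand: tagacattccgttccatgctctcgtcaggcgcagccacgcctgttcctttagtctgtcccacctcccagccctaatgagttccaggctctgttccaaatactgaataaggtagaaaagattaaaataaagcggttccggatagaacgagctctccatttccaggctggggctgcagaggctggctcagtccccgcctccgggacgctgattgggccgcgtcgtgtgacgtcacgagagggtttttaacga

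Matches were common among the members but also elsewhere. At least one of the 4 GATA motifs stood in 36 of the 106 member windows (34.0%), belonging to 32 members, against 29.8% of all 32851 windows and 19.8% of the 11522 windows of the genes tested. TGATAA alone was in 13.2% of the member windows, against 9.05% of all windows and 4.77% of those of tested genes, and AGATAG in 12.3%, against 8.95% and 6.28%. For AGATAA the shares were 9.43%, 11.2% and 7.02%, and for TGATAG 5.66%, 7.29% and 4.68%. Of other motifs searched on both strands, CACGTG, the E-box that TFE3 and SREBP proteins can read, was in 11.3% against 7.15% and 9.96%, CCAAT in 45.3% against 37.4% and 39.1%, and TATAAA in 4.72% against 13.6% and 7.15%. Neither the sterol regulatory element of the LDL receptor promoter nor the consensus estrogen response element was in any member window; they stood in 0.0913% and 0.0700% of all windows. These are descriptions of the windows and of no more than these letters.

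The 3 genes named as examples when the set was chosen, Actn3, Btn1a1 and Arl4d, belong to unrelated families. Actn3 encodes alpha-actinin-3, the actin cross-linker of the Z-discs of fast muscle fibres, and lies on chromosome 19 between 4861216 and 4877909. It read 0.681, 0.6805 and 0.983 CPM in the Vector libraries, 24.5, 22.3 and 24.3 CPM in the Vector+EST libraries, 23.02, 24.02 and 25.2 CPM in SREBP2 and 25.2, 27.02 and 23.6 CPM in SREBP2+EST. The 9 treated libraries formed one narrow band, with means of 23.7 ± 1.24, 24.1 ± 1.105 and 25.3 ± 1.73 CPM (SD, n = 3) against 0.781 ± 0.174, and folds of 30.3, 30.8 and 32.3. Between SREBP2 and Vector+EST the log2 difference was 0.07 (SE 0.07, adjusted p = 0.570) by edgeR's quasi-likelihood test, with a 95% interval from -0.09 to 0.22.

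Markers of skeletal muscle, 6 in the table and 5 of them under 1 CPM in every library, summed to between 4.70 and 5.38 CPM in Vector and between 6.13 and 11.2 CPM in the treated libraries; their part in the level of Actn3 was not tested. Its relatives were at other levels. Actn4, the alpha-actinin of non-muscle cells, averaged 468 CPM in Vector and 589, 561 and 581 CPM in the treated groups, and Actn1 and Actn2 reached at most 1.12 and 0.360 CPM in any library. Of 43 contractile genes of muscle listed, 34 were in the table and 9 were tested. Among the 8 of these that are not members, 5 were higher and 2 lower in Vector+EST than in Vector, and 6 higher and 1 lower with the fragment, with or without EST. Tnnc1, troponin C of slow muscle, went from 0.122 CPM to 2.56, 2.11 and 2.24 CPM and the troponin I gene Tnni3 from 0.122 CPM to 0.581, 0.881 and 0.829 CPM, while desmin (Des) fell, from 3.59 CPM to 1.58, 1.78 and 1.48 CPM. The background in these contrasts was 35.2%, 37.7% and 38.6% of the genes tested called higher, and 35.5%, 33.8% and 34.2% called lower.

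Btn1a1 encodes butyrophilin, a membrane protein of milk fat globules and a relative of the immune B7 proteins, and lies on chromosome 13 between 23456984 and 23465914. It read 3.09, 3.45 and 2.87 CPM in Vector, 63.1, 61.7 and 64.6 CPM in the Vector+EST libraries, 74.5, 72.8 and 69.99 CPM in SREBP2 and 76.6, 72.9 and 75.4 CPM in SREBP2+EST. Here the 3 Vector+EST libraries lay below all 6 libraries with the fragment, and the log2 difference was 0.24 (SE 0.04, adjusted p = 8.48e-04) for SREBP2 and 0.29 (SE 0.04, adjusted p = 1.38e-04) for SREBP2+EST. Markers of mammary epithelium, 4 in the table and 2 of them under 1 CPM in every library, summed to between 3.31 and 3.62 CPM in Vector and between 4.54 and 9.61 CPM in the treated libraries; their part was not tested. Of 12 butyrophilin family genes listed, 3 others were tested. Btnl4 averaged 0.653 CPM in Vector and 0.9904 CPM in Vector+EST against 4.62 and 4.94 CPM in the fragment groups, where it was called higher than in Vector. Btnl6 averaged 0.281 CPM in Vector and 0.599, 4.14 and 3.21 CPM in the treated groups and was called higher in all 3. Ermap, a red cell membrane butyrophilin relative, was lower in all 3 treated groups, at 486, 452 and 437 CPM against 619 CPM.

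Arl4d encodes an ARF-like small GTPase of the plasma membrane and lies on chromosome 11 between 101665541 and 101667832. Its libraries read 2.46, 1.94 and 1.88 CPM in Vector, 38.3, 39.2 and 39.5 CPM in the Vector+EST libraries, 29.9, 30.2 and 33.6 CPM in SREBP2 and 33.99, 30.3 and 32.9 CPM in SREBP2+EST. In contrast to Btn1a1, its 3 Vector+EST libraries were above all 6 fragment libraries, with differences of -0.28 (SE 0.07, adjusted p = 0.00661) on the log2 scale in SREBP2 and -0.22 (SE 0.07, adjusted p = 0.0251) in SREBP2+EST; the second call was lost when any single Vector+EST library was left out. Its closest relative Arl4a went from 34.2 CPM in Vector to 50.2, 57.4 and 57.2 CPM, and Arl4c reached at most 0.265 CPM in any library. Over the 19 other tested genes of the ARF and ARF-like list, 10 were higher and 7 lower in Vector+EST than in Vector, and 11 higher and 5 lower in each fragment group, Arl8b with a rise from 147 to 292, 271 and 281 CPM. Of all genes tested, 35.2%, 37.7% and 38.6% were higher and 35.5%, 33.8% and 34.2% lower in Vector+EST, SREBP2 and SREBP2+EST.

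**Figure D2:**
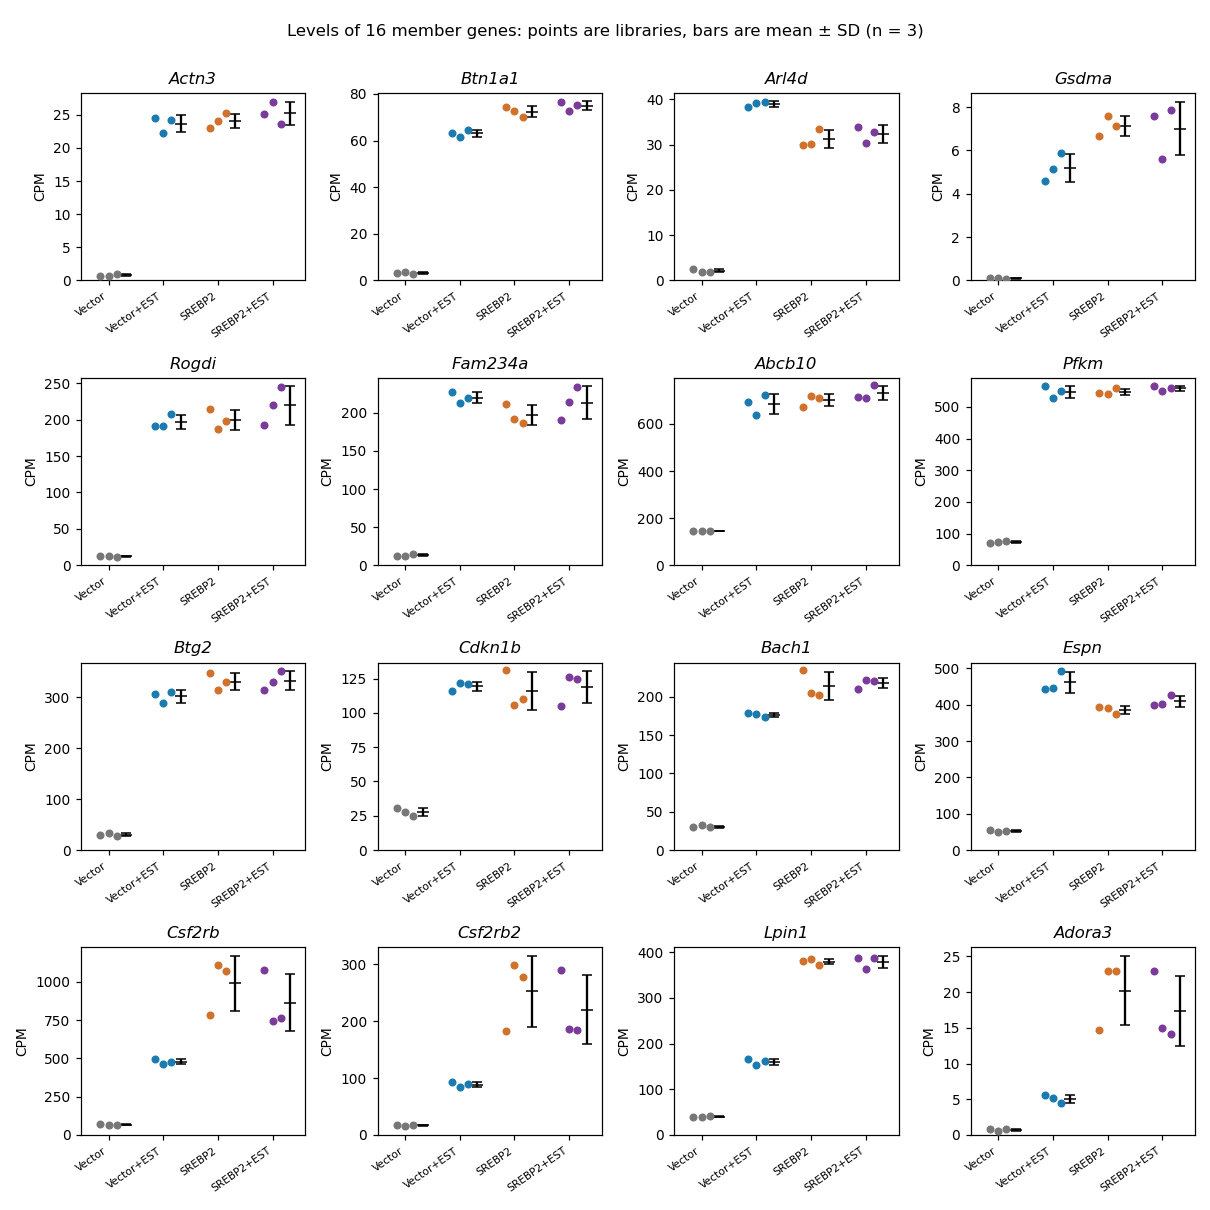
Points are the CPM of single libraries for 16 members, and bars are the mean ± SD of 3 libraries. In all panels the Vector libraries lie lowest; Actn3 and Pfkm are level across the treated groups, while Csf2rb, Csf2rb2, Adora3 and Lpin1 are higher with the fragment than with EST alone.

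Members of growth control numbered 8, several of which accompany cell cycle exit. Btg2, an antiproliferative partner of the mRNA deadenylation machinery, read 30.5, 32.8 and 28.2 CPM in Vector and 306, 288 and 311, 348, 315 and 329 and 314, 331 and 352 CPM in Vector+EST, SREBP2 and SREBP2+EST. Cdkn1b, the cyclin-dependent kinase inhibitor p27, read 30.9, 27.9 and 24.8 CPM in Vector and 116, 121 and 121, 131, 106 and 110.2 and 105, 126 and 125 CPM in the same order. Mxd1, which competes with MYC for its partner MAX, averaged 16.9 CPM in Vector and 81.1, 84.8 and 89.3 CPM after treatment, and cyclin G2 (Ccng2), which is linked to arrest, 8.997 CPM and 50.03, 59.1 and 61.02 CPM. The other 4 were Strada, a partner of the kinase LKB1, the Mediator kinase Cdk19, Phlda1, and Fam83d, a spindle protein that goes with mitosis and not with arrest. Btg2 and Cdkn1b were also the only members among 36 GATA1-dependent erythroid genes listed. Of the 31 others tested, 6, 7 and 7 were higher and 20, 18 and 19 lower than in Vector in Vector+EST, SREBP2 and SREBP2+EST. Most of these others were thus lower, where 35.5%, 33.8% and 34.2% of all genes tested were lower and 35.2%, 37.7% and 38.6% higher.

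Members that act on transcription, chromatin or RNA numbered 14. Bach1, the heme-sensitive repressor of globin and antioxidant genes, read 30.5, 32.1 and 29.6 CPM in Vector, 178, 177 and 173 CPM in the Vector+EST libraries, 234, 205 and 202 CPM in SREBP2 and 209.8, 221 and 221 CPM in SREBP2+EST, so that all 6 fragment libraries were above all Vector+EST libraries. Tfe3, a factor of lysosome genes, was among the 10 most abundant members, with 70.2, 72.1 and 66.7 CPM in Vector and 320.1, 308 and 326, 331, 330.5 and 329 and 333, 329 and 342 CPM after treatment. Gtf2b, the general factor TFIIB, averaged 59.7 CPM in Vector, 326 CPM in Vector+EST, 252 CPM in SREBP2 and 282 CPM in SREBP2+EST. The others were the zinc finger genes Zbtb46, Zbtb8b, Zfp78, Phf13 (a reader of trimethylated histone H3) and Flywch1, the corepressor Tle2, Crebl2, Nfatc2ip, the splicing factor Zrsr1, the translational regulator Cpeb3, and Nrip3, with group means after treatment from 5.34 to 165 CPM.

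Cell surface members, 10 in all, held the widest spread among the treated groups. Csf2rb encodes the common beta chain through which the receptors for IL-3, IL-5 and GM-CSF signal, and Csf2rb2 a mouse-specific beta chain for IL-3. Csf2rb was the most abundant member: its libraries read 69.5, 67.05 and 66.8 CPM in Vector, 499, 463 and 479 CPM in the Vector+EST libraries, 784, 1113 and 1075 CPM in SREBP2 and 1079, 748 and 766 CPM in SREBP2+EST. Csf2rb2 read 18.2, 16.4 and 17.04 CPM in Vector, 92.4, 84.5 and 88.7 CPM in the Vector+EST libraries, 182, 298 and 276 CPM in SREBP2 and 289.9, 186 and 185 CPM in SREBP2+EST. In both, the fragment libraries were above the EST libraries without overlap, and SREBP2 library 1 and SREBP2+EST library 1 sat beside the 2 other libraries of each other's group. The chains are near-identical copies, so that the split of reads between them is uncertain. Adora3, the adenosine A3 receptor, repeated the order at a low level, with 0.842, 0.583 and 0.813 CPM in Vector, 5.596, 5.19 and 4.45 CPM in the Vector+EST libraries, 14.6, 23.01 and 22.9 CPM in SREBP2 and 22.9, 14.9 and 14.1 CPM in SREBP2+EST; Tmigd3, whose span overlaps it, averaged 0.341 CPM in Vector and 1.11, 3.51 and 3.58 CPM.

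The other genes of the cytokine list were more often lower than higher. Csf2rb was the 1 member among 24 genes of JAK-STAT feedback and cytokine signalling, and of the 16 others tested, 2 were higher and 11 lower in Vector+EST than in Vector, 4 higher and 10 lower in SREBP2, and 3 higher and 10 lower in SREBP2+EST. The shares over all genes tested were 35.2%, 37.7% and 38.6% higher and 35.5%, 33.8% and 34.2% lower. The alpha chain that pairs with these beta chains for IL-3, Il3ra, went from 13.8 CPM to 17.6, 20.8 and 20.2 CPM and was called higher in all 3 contrasts. Cish, a feedback inhibitor, went from 139 CPM to 33.0, 45.6 and 42.7 CPM, the kinase Pim1 from 326 CPM to 83.7, 94.0 and 91.0 CPM, and Il4ra from 61.7 CPM to 3.53, 5.36 and 5.52 CPM, each called lower in all 3. The class also held Porcn, the acyltransferase of the endoplasmic reticulum that lipidates WNT proteins for export, with 4.43 CPM in Vector and 36.04, 50.5 and 53.7 CPM, Fndc5, the precursor of irisin, with 15.97 CPM and 105, 122 and 121 CPM, and Crlf3, Gpr146, ephrin-B2 (Efnb2), the olfactory receptor gene Olfr1033 and protogenin (Prtg).

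The 15 members of actin, tubulin, cell junctions and nuclear envelope included Actn3 and, with a smallest fold of 18.4, Ajuba, a LIM protein of junctions that restrains Hippo kinases. Ajuba read 0.452, 0.485 and 0.476 CPM in Vector and 8.61, 8.99 and 8.34, 10.5, 8.27 and 7.94 and 8.48, 10.3 and 9.29 CPM in Vector+EST, SREBP2 and SREBP2+EST. Gja6, a connexin gene, read 2.83, 2.303 and 3.13 CPM in Vector and 37.8, 35.6 and 34.9, 51.3, 44.4 and 45.9 and 47.97, 46.1 and 51.7 CPM, with the fragment libraries above the EST libraries. Espn, espin, an actin bundler of stereocilia, read 54.8, 50.98 and 51.6 CPM and 444, 446 and 494, 393, 392 and 374 and 399, 403 and 427 CPM, with the EST libraries on top. Plekho2, a pleckstrin homology protein, was level after treatment at 376, 372 and 386 CPM against 59.97 CPM. The motor proteins Myo6 and Kif5a, the CDC42 effectors Cdc42ep2 and Cdc42ep4, the cofilin kinase Tesk2, Lurap1, Nicn1, a subunit of a tubulin-modifying complex, the cilia protein Cfap53, Cldn13 and the nuclear envelope protein Sun2 completed them, with smallest folds from 4.15 to 7.94.

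Vesicle traffic and lysosome genes numbered 8, Arl4d among them. Rogdi, a leucine zipper protein, read 12.7, 12.2 and 10.96 CPM in Vector and 191, 192 and 208, 215, 187 and 198 and 193, 221 and 246 CPM in Vector+EST, SREBP2 and SREBP2+EST. Necap2, a clathrin coat accessory protein, read 88.5, 81.2 and 85.6 CPM and 393, 382 and 420.3, 353, 359.7 and 371 and 354, 367 and 387 CPM, and Uhrf1bp1, a bridge-like lipid transfer protein, 72.8, 69.98 and 72.2 CPM and 374, 363 and 359.7, 397, 368 and 343 and 365, 354 and 356 CPM. Per kilobase of longest transcript, Necap2 was the highest in Vector+EST of the 96 members with a known transcript length, at 209 CPM per kb. Gm46390 and Gm52768 had none. With them were the sorting nexin Snx29, the Rab regulator Evi5l, the AP-5 subunit Ap5s1 and Rufy3, which had folds between 4.15 and 7.89.

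Members that move solutes face several membranes. Abcb10, an ATP-binding cassette protein of the inner mitochondrial membrane needed for heme synthesis in erythroid cells, had the highest Vector level of all members: 146, 146 and 146 CPM in Vector and 694, 636 and 723, 674, 721 and 712 and 716, 712 and 766 CPM after treatment. Its 9 treated libraries overlapped between groups, although it was called higher in SREBP2+EST than in Vector+EST, by 0.14 (SE 0.05, adjusted p = 0.0469). The potassium-chloride cotransporter Slc12a4, the amino acid transporter Slc38a5 and the lysosomal Slc46a3 had largest folds of 6.15, 5.07 and 13.03.

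Lipid genes numbered 9, none of them from the 24 genes of the cholesterol pathway listed, of which all 23 tested were higher with the fragment and 2 were higher and 16 lower with EST alone. Among all genes tested, 37.7% and 38.6% were higher in SREBP2 and SREBP2+EST than in Vector, and 35.2% were higher and 35.5% lower with EST alone. Lpin1, the phosphatidate phosphatase that supplies diacylglycerol for phospholipids and triglycerides, read 39.7, 39.6 and 41.1 CPM in Vector, 166, 154 and 162 CPM in the Vector+EST libraries, 382, 385 and 373 CPM in SREBP2 and 388, 364 and 387 CPM in SREBP2+EST. The 6 fragment libraries were level and stood more than 2-fold above the EST libraries, with a log2 difference of 1.29 (SE 0.04, adjusted p = 4.04e-13) for SREBP2 and 1.29 (SE 0.04, adjusted p = 3.94e-13) for SREBP2+EST. Chpt1 makes phosphatidylcholine and went from 15.2 CPM to 82.5, 102 and 104 CPM; Ptdss2 makes phosphatidylserine and went from 25.4 CPM to 144, 149.7 and 151 CPM. Lcat, the plasma enzyme that esterifies cholesterol, the lysosomal phospholipase Pla2g15, the acyltransferase Mboat2, Hsd17b11 of lipid droplets, Pex11a of peroxisomes and the sterol-binding Gramd1c were the rest, at means between 6.496 and 59.3 CPM after treatment.

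Of the 11 other enzymes and mitochondrial proteins, Pfkm, which commits sugar to glycolysis, read 71.5, 71.7 and 75.3 CPM in Vector and 566, 528 and 551, 543, 542 and 559 and 567, 551 and 559 CPM in the treated groups. These 9 libraries were level, with a difference of 0.04 (SE 0.04, adjusted p = 0.456) on the log2 scale between SREBP2 and Vector+EST and a 95% interval from -0.04 to 0.12. Mgarp, a mitochondrial transport protein, read 0.419, 0.262 and 0.261 CPM and 6.59, 7.16 and 8.02, 7.34, 7.85 and 5.81 and 6.41, 8.28 and 9.82 CPM. Gfpt2, the entry enzyme of hexosamine synthesis, averaged 7.78 CPM in Vector, 32.1 CPM in Vector+EST, 61.5 CPM in SREBP2 and 58.6 CPM in SREBP2+EST. Ache, acetylcholinesterase, which red cells carry on their surface, went from 58.7 CPM to 275, 249 and 253 CPM. The others were Nagk, Ilvbl, the branched-chain phosphatase Ppm1k, the respiratory chain subunit Cox7a1, Nqo2, Ddc, which makes dopamine and serotonin, and Abhd18. A further 4 members work in the secretory pathway: Pdia2, Rcn3, the gamma-secretase subunit Psen2 and the serpin Serpini1, with folds from 4.56 to 7.17.

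The last 14 members have little described function or fit no class. Gsdma, a gasdermin of skin epithelium, had the largest folds and rested on few counts in Vector, with 2, 2 and 1 counts; its libraries read 4.57, 5.14 and 5.86 CPM in the Vector+EST libraries, 6.65, 7.57 and 7.13 CPM in SREBP2 and 7.598, 5.59 and 7.86 CPM in SREBP2+EST. From summed counts its ratio over Vector was 59.5 in Vector+EST (95% interval for counting error only, 25.2 to 185), 81.7 in SREBP2 (34.7 to 253) and 80.4 in SREBP2+EST (34.2 to 249). Fam234a read 12.6, 11.8 and 15.04 CPM in Vector and 228, 213 and 220.04, 212, 193 and 186 and 191, 215 and 234 CPM in the treated groups, and Tmem120b, a nuclear envelope protein of fat cells, 5.39, 5.34 and 4.54 CPM and 52.5, 47.9 and 58.8, 52.1, 54.1 and 54.5 and 48.8, 52.03 and 59.3 CPM. With Btn1a1 and these 3 stood Vwa7, Vwa5b2, the photoreceptor protein Rom1, Nxpe2, Lrrc57, Fam131a, N4bp2l1, Ypel1, Gm46390 and Gm52768.

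Differences among the treated groups were tested on all 11177 genes that passed the filter on low counts, and all 98 members passed it. Between SREBP2 and Vector+EST, 37 members (37.8%) were called at an adjusted p-value under 0.05, 28 higher and 9 lower with the fragment, where 23.4% of all genes tested were called, 14.4% higher and 8.96% lower. Between SREBP2+EST and Vector+EST, 36 members (36.7%) were called, 33 higher and 3 lower, against 21.9% of all genes, 14.0% higher and 7.94% lower. With the library number as a replicate block the latter count was 22, 21 higher and 1 lower. The members had a median absolute log2 difference of 0.175 and 0.184, against 0.116 and 0.117 over all genes, and 46 members were called in at least 1 of the 3 contrasts, against 27.9% of all genes. Without SREBP2 library 1 and SREBP2+EST library 1, 53 members were called for SREBP2, 32 higher and 21 lower, against 34.4% of all genes (18.7% higher and 15.7% lower), and 49 for SREBP2+EST, 45 higher and 4 lower, against 30.7% (16.8% higher and 14.0% lower). All 37 members called for SREBP2 were again called in the same direction, as were 32 of the 33 higher and 2 of the 3 lower for SREBP2+EST. With scaling to library totals in place of TMM the split was 25 higher and 14 lower for SREBP2 and 26 higher and 7 lower for SREBP2+EST. The rule bore on these values through its limits, since a member that is near 4-fold in one group can differ from another group only by being higher there. The smallest of the 3 folds lay in Vector+EST for 53 members, in SREBP2 for 38 and in SREBP2+EST for 7.

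A log2 difference of at least 1 was reached by 4 members, each higher with the fragment; 3.10% of all genes tested were called higher by that much between SREBP2 and Vector+EST and 2.79% between SREBP2+EST and Vector+EST. Adora3 differed by 2.03 (SE 0.21, adjusted p = 1.90e-06) in SREBP2 and 1.81 (SE 0.21, adjusted p = 9.17e-06) in SREBP2+EST. Csf2rb2 differed by 1.56 (SE 0.17, adjusted p = 4.98e-06) and 1.36 (SE 0.17, adjusted p = 2.40e-05), and Csf2rb by 1.09 (SE 0.13, adjusted p = 1.01e-05) and 0.89 (SE 0.13, adjusted p = 8.61e-05), the last of them under 1. For Lpin1 the values are those given above. Without SREBP2 library 1 and SREBP2+EST library 1 these differences were 2.23 (SE 0.10, adjusted p = 1.94e-13) and 1.55 (SE 0.11, adjusted p = 3.21e-10) for Adora3, 1.75 (SE 0.04, adjusted p = 4.48e-18) and 1.11 (SE 0.04, adjusted p = 2.54e-14) for Csf2rb2, 1.24 (SE 0.03, adjusted p = 4.19e-17) and 0.70 (SE 0.03, adjusted p = 1.21e-12) for Csf2rb, and 1.29 (SE 0.04, adjusted p = 1.78e-16) and 1.26 (SE 0.04, adjusted p = 2.90e-16) for Lpin1.

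Next in size among those higher in SREBP2 than in Vector+EST were Gfpt2, by 0.98 (SE 0.08, adjusted p = 5.56e-08), the kinase Tesk2, by 0.79 (SE 0.10, adjusted p = 1.87e-05), and Cox7a1, by 0.68 (SE 0.11, adjusted p = 1.83e-04). The other calls in that direction were of 0.14 to 0.56 on the log2 scale, among them Nrip3, Crebl2, Porcn, Gja6, Chpt1 and Bach1. The 9 members called lower in SREBP2 were Serpini1, Phf13, Abhd18, Gtf2b, Ilvbl, Strada, Arl4d, Espn and Fam83d, with log2 differences of -0.48 to -0.17. Of these, Ilvbl, Arl4d and Fam83d were the 3 called lower in SREBP2+EST too, but 0 members were called lower there when any single Vector+EST library was left out, and Fam83d, without SREBP2 library 1 and SREBP2+EST library 1, was not called, at -0.10 (SE 0.04, adjusted p = 0.0757) on the log2 scale. Over the 12 settings that leave out 1 library, the number called lower ran from 4 (without SREBP2 library 5) to 16 (without SREBP2 library 1) for SREBP2 and from 0 to 9 (without SREBP2 library 1) for SREBP2+EST. Members named here beyond the rule for named genes were chosen after their values were seen.

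**Figure D3:**
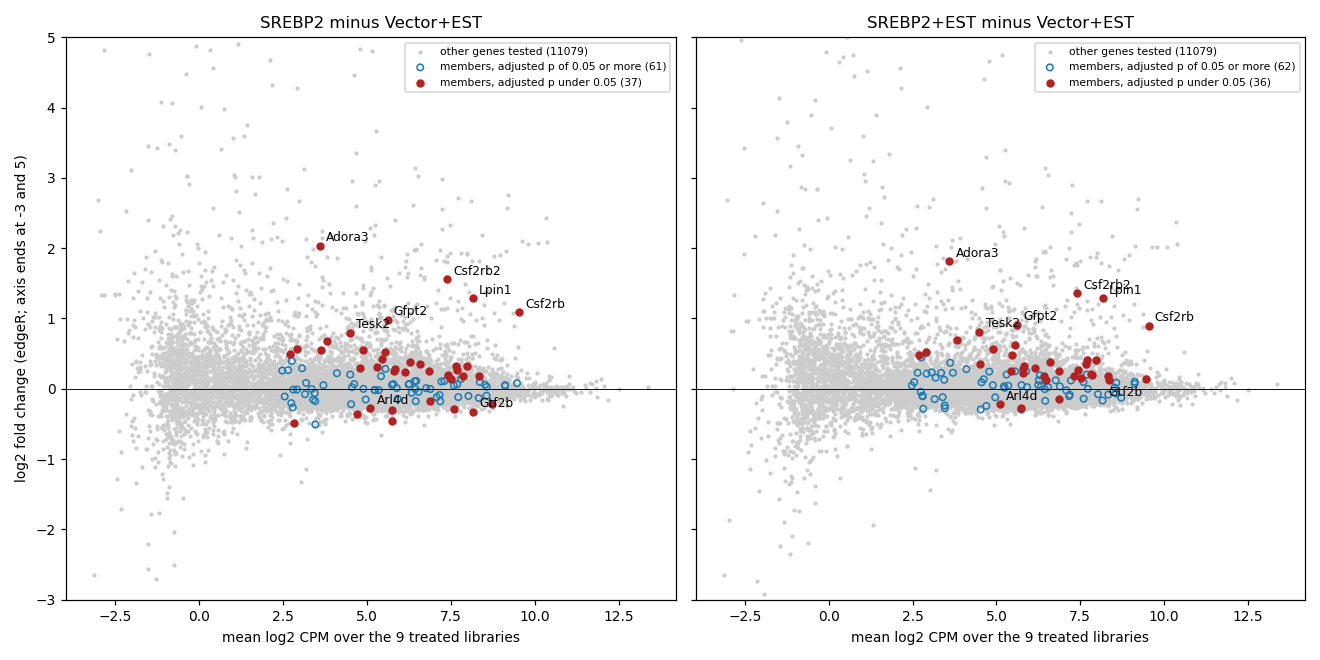
Each point is a gene tested, with its mean log2 CPM over the 9 treated libraries against its log2 fold change from edgeR; grey points are other genes, open circles members with an adjusted p of 0.05 or more and filled circles members under it. Adora3, Csf2rb2 and Lpin1 lie above 1 in both panels and Csf2rb in the left one, while no member lies below -1.

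EST added to cells with the fragment moved no member past the threshold as the libraries are labelled: edgeR's quasi-likelihood test called 0 members and 0 of all genes (background 0%), with 0 members and 506 genes (4.53%) at an unadjusted p under 0.05, and DESeq2 called 0 members and 12 genes. The largest absolute log2 difference of a member was 0.24. Without SREBP2 library 1 and SREBP2+EST library 1, 40 members (40.8%) were called, 33 higher and 7 lower with EST, against 13.9% of the 11292 genes then tested, 6.18% higher and 7.70% lower, with log2 differences from -0.67 to 0.69. Leaving both out leaves 2 libraries in each of these groups, and they were chosen as going against their labels after earlier results were known, so this count serves to show how much rests on them.

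The members then called were of both directions. The 2 libraries left out were those that ran against this contrast, so the choice itself widened the differences below and narrowed their standard errors. Their p-values are given as a description and show no effect of EST, since 0 members were called with all libraries. Among the 33 higher with EST were the corepressor Tle2, by 0.69 (SE 0.16, adjusted p = 0.00578), Ppm1k, by 0.69 (SE 0.14, adjusted p = 0.00193), Lurap1, by 0.62 (SE 0.11, adjusted p = 9.40e-04), Evi5l, Serpini1, Phf13, Nicn1, Zrsr1, Abhd18, Gtf2b and Strada, and, with a smaller difference than some not named, the growth inhibitor Cdkn1b at 0.20 (SE 0.05, adjusted p = 0.0134). Lower with EST were Adora3, at -0.67 (SE 0.09, adjusted p = 8.56e-05), Csf2rb2, at -0.64 (SE 0.04, adjusted p = 1.44e-08), Ddc, Csf2rb, at -0.54 (SE 0.04, adjusted p = 1.44e-08), Nxpe2, Vwa7 and Gfpt2. Lpin1 was at -0.02 (SE 0.04, adjusted p = 0.772) and Actn3 at 0.03 (SE 0.08, adjusted p = 0.875).

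**Figure D4:**
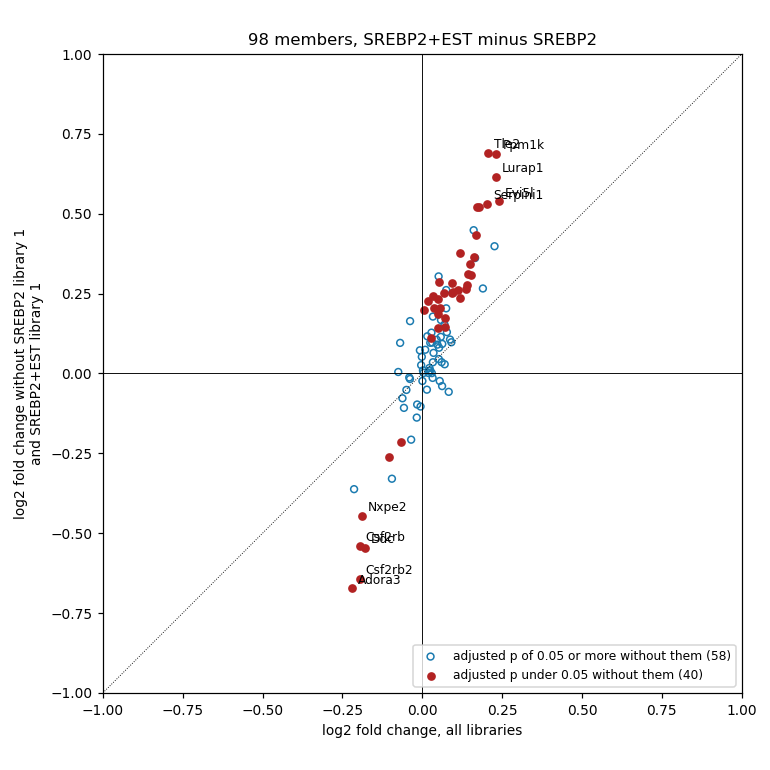
Each point is a member; the x axis is its log2 fold change of SREBP2+EST over SREBP2 with all libraries and the y axis the same without SREBP2 library 1 and SREBP2+EST library 1, the dotted line marking equal values. With all libraries the members lie within 0.24 of zero, and without the 2 libraries they spread from -0.67 to 0.69, with 40 filled points under an adjusted p of 0.05.

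By position, the members were scattered, with 97 of 98 placed by RefSeq (GRCm38.p6), all of them protein coding, on 20 chromosomes. In 4 cases a pair lay within 50 kb of each other, so that 8 of 97 members (8.25%) had another member this near, against 2.35% of 11047 other genes tested. On chromosome 15, Csf2rb2 (78282507 to 78305721) and Csf2rb (78325800 to 78351001) were 20078 bases apart. On chromosome 8, Lcat (105939551 to 105943402) and Slc12a4 (105943590 to 105966149) were separated by 187 bases. Pdia2 (26195999 to 26199134) and Fam234a (26212692 to 26244307) on chromosome 17 were 13557 bases apart, and Crebl2 (134830127 to 134880580) and Cdkn1b (134920401 to 134925525) on chromosome 6 were 39820 bases apart. The first pair are copies of each other, and the strand that reads came from was not stated, so that reads in overlapping spans cannot be assigned by strand; 24 members overlapped the span of another gene in the table.

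The genes beside these pairs are no members, so that the rule itself set the pairs above them, and their levels are given as a description. Between Pdia2 and Fam234a, Arhgdig read 37.3 CPM in Vector and 45.5, 43.0 and 40.1 CPM in the treated groups, and Rgs11 4.66 CPM and 10.5, 9.42 and 9.11 CPM. On the far sides, Axin1 read 81.3 CPM and 79.3, 71.7 and 74.1 CPM, and Luc7l 83.0 CPM and 94.6, 86.9 and 86.4 CPM. Beside Lcat and Slc12a4, Pskh1 went from 58.2 CPM to 144, 123 and 132 CPM and Dus2 from 25.9 CPM to 67.0, 58.9 and 59.8 CPM, both called higher in all 3 contrasts, while Psmb10, the gene next to Lcat on its other side, went from 32.2 CPM to 21.6, 20.003 and 18.3 CPM and was called lower in all 3. Beside Crebl2 lay Dusp16, a phosphatase of stress kinases, at 31.3 CPM in Vector and 84.7, 85.6 and 92.2 CPM, while Gpr19, which overlaps Crebl2 on the side towards Cdkn1b, read 7.22 CPM and 10.5, 8.38 and 8.56 CPM. Beside Csf2rb2 lay Ncf4, at 1.12 CPM in Vector, 1.11 CPM in Vector+EST and 1.94 and 2.05 CPM with the fragment.

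**Figure D5:**
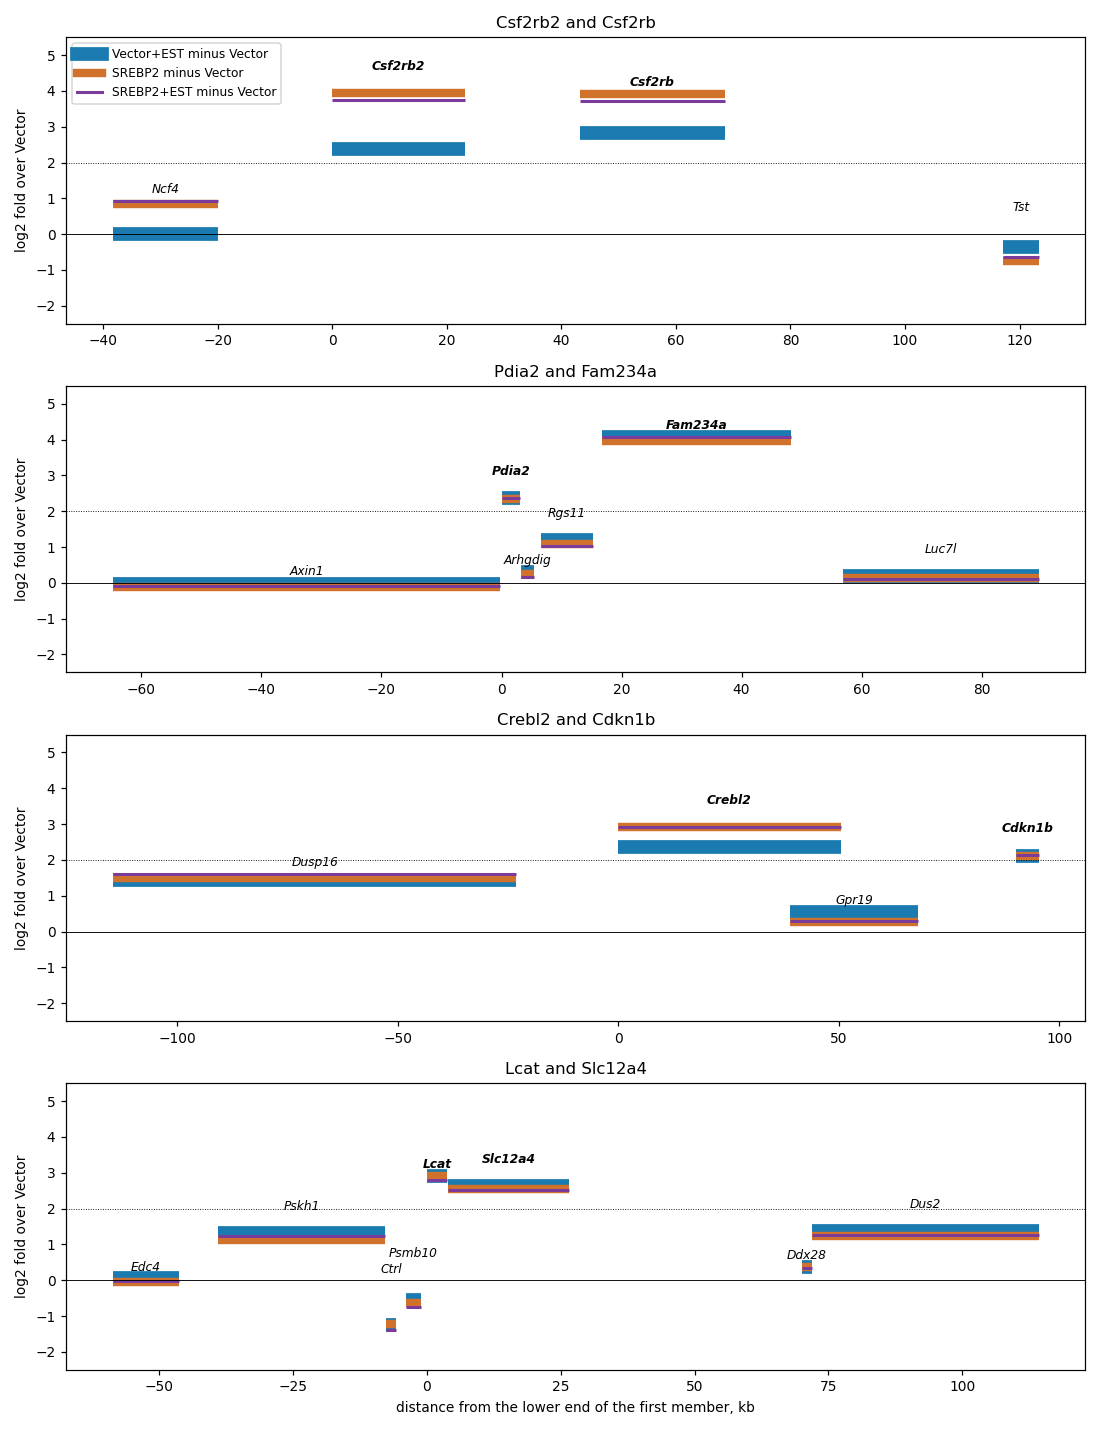
For each pair of neighbouring members, bars span the genes tested within 50 kb, by distance in kb from the lower end of the first member, at the height of their log2 fold change over Vector in the 3 treated groups; member names are in bold and the dotted line marks 2. The dotted line is the 4-fold limit of the rule, which by choice separates the members, at or above 2.11, from the other genes, and the genes beside them lie at different heights below it.

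Over all members, 260 genes that are no members lay within 50 kb of one. Of these, 49.6% were called higher than Vector in Vector+EST, 46.2% in SREBP2 and 47.7% in SREBP2+EST, against 34.6%, 37.2% and 38.0% of all genes tested that are no members, these 260 included. The share called lower was 30.0%, 29.6% and 30.0%, against 35.5%, 33.8% and 34.2% of all genes tested. The members did not stand out in length, with a longest transcript of 3401 bases at the median for 96 members and 3366 bases for 10799 genes tested. Outside the set, the genes whose mean log2 CPM over the 4 groups was most like the median member were Galk2, Zfp937, Rab8b, Dennd6b and Ppcdc, with Pearson's r from 0.99998 to 0.999995 over 4 points. Because 3 of these points are nearly level, such values are easily reached, and 1118 of 11079 other genes had r over 0.99.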

How the data were processed

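mRNA was captured with oligo(dT) beads and read as single-end reads on the DNBSEQ platform. The authors' deposited values were estimated counts of reads per gene without normalization (66.5% were whole numbers). Per the submitters' processing notes HISAT2 2.0.4, Bowtie2 2.2.5, RSEM 1.2.12 and DESeq2 1.4.5 were used with build GRCm38.p6. A second deposited table with the authors' own fold changes and p-values per comparison was not used. Sample titles gave the groups, and each column was assigned to a group by its header.

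CPM was the count divided by the library total, per 1000000. Estimated counts were rounded, filtered with filterByExpr (11177 of 17210 genes kept), scaled by TMM and tested with edgeR 4.0.16 in R 4.3.3 (quasi-likelihood F-test, all 12 libraries in one fit, two-sided), with Benjamini-Hochberg adjustment over the genes tested and a threshold of 0.05. The standard error was the log2 fold change over the square root of F. The procedure was tested on simulated data. Named genes were the 3 examples, the 10 most abundant members, the 10 with the largest smallest fold, those differing between treated groups by a log2 fold change of at least 1, the 3 genes on either side of each limit, and the 5 most alike genes. Promoter windows and gene spans came from RefSeq, and exons, which were left out of printed stretches, from GENCODE M21. The members, gene lists and motifs were chosen with earlier results of these data known. The values of 1 member are not reported here. Alternatives were DESeq2 1.42.0, other scalings and filters, fewer libraries, a replicate block and other limits of the rule.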

Additional observations from a re-analysis of the deposited data

How the results depend on the processing

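The set had 98 members, 179 with a fold limit of 3 and 40 with a limit of 6. It held between 74 and 116 genes under the other settings, which were TMM-scaled CPM, CPM limits of 2 and 10, the lowest treated over the highest Vector library, and leaving out SREBP2 library 1 with SREBP2+EST library 1 (93 genes, 92 of them shared with the 98). Leaving out single libraries gave between 94 and 103 genes. For the counts of members called, leaving out single libraries gave 26 to 46 for SREBP2 against Vector+EST, 24 to 47 for SREBP2+EST against Vector+EST, and 0 to 0 for SREBP2+EST against SREBP2. Without SREBP2 library 1 and SREBP2+EST library 1 the last count was 40 and the others 53 and 49. The 2 latter stayed within 1.5 times the reported counts. The members with a log2 difference of at least 1 (Adora3, Csf2rb2 and Lpin1 in both fragment groups against Vector+EST, and Csf2rb in SREBP2) were followed through these alternatives and kept their direction in each.

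Numbers in the column headers are shared between groups, but same-numbered libraries did not deviate together (correlations from -0.17 to 0.07 over all genes), so the numbers were not taken to pair the libraries. With the number as a replicate block, 28, 22 and 0 members were called; the 22 went with a fall of calls over all genes from 2448 to 1208. For SREBP2+EST against SREBP2, calls over all genes were 0 with edgeR, 12 with DESeq2, 22 with no filter on low counts, 8 with only the 6 libraries compared, 18 without Vector+EST library 5 and 1567 without SREBP2 library 1 and SREBP2+EST library 1. The cause was not tested.

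Depth limits what can be said of members near 5 CPM, and of Gsdma, with 1 or 2 counts in each Vector library. With 3 libraries a group, a log2 difference within the intervals given is not shown to be absent. Reads of Csf2rb and Csf2rb2, and of the 24 members that overlap another gene, may be split wrongly.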
